A study of Mus musculus with 8 samples.

Results

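The 8 genes described here, Npas4, Hivep3, Hdgfrp3, Lrig1, Slc7a10, Synpo, Cpne7 and Angptl2, were present mainly in CD4+ T cells with a polyclonal receptor repertoire. They were chosen by name from the deposited table because their level was far lower in monoclonal than in polyclonal libraries of reporter-positive or of reporter-negative cells. They are 8 of the 24016 genes in the table, each with 1 row. All 8 passed the filter on low values (at least 1 CPM, or read per 1000000 reads assigned to genes, in at least 2 libraries), as did 12881 genes in all. Since the polyclonal libraries alone can carry a gene through that filter, passing it says nothing about the 8 genes.

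RNA of splenic CD4+ T cells was sequenced in 4 groups of 2 libraries, with replicates called A and B. Monoclonal Treg (Foxp3 reporter-positive) and monoclonal non-Treg (reporter-negative) cells came from NOD.TCRab.FoxP3GFP.Rag-/- mice, a diabetes-prone NOD strain that carries a Foxp3-GFP reporter, 1 αβ T cell receptor and a deletion of a Rag gene. Polyclonal Treg and polyclonal non-Treg cells came from NOD.FoxP3GFP mice, which carry the same reporter on the same NOD background and form a diverse repertoire. The sample names call the monoclonal mice T138 and the polyclonal mice WT, the cell type labels also mark the monoclonal cells with the unexplained letters NT, and no age or treatment is given. The receptor and the Rag genotype changed together and cannot be told apart. Separate animals are not stated for the 2 libraries of a group, so the p-values below measure the spread between libraries, which may be technical.

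A T cell receptor is assembled by the Rag recombinase in the thymus, and CD4+ T cells that express Foxp3 there or later act as Treg cells, which restrain immune responses. A Rag-deficient animal with a ready-made receptor has T cells of 1 specificity, and its B cells do not mature. The 8 genes share no pathway. Npas4 and Hivep3 encode transcription regulators, Hdgfrp3 a chromatin-binding protein, Lrig1 a receptor at the cell surface, Slc7a10 an amino acid exchanger, Synpo and Cpne7 proteins of the cytoskeleton and of membranes, and Angptl2 a secreted factor. Several are best known outside the immune system, in neurons, kidney podocytes, fat cells or epithelial stem cells.

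Promoter windows from RefSeq (build GRCm38.p6, 250 bases before to 50 bases after the gene start) were at hand for 6 of the 8 genes, with Hdgfrp3 listed as Hdgfl3. Those of 4 genes are shown. Npas4 and Slc7a10 were the 2 genes higher in polyclonal Treg than in polyclonal non-Treg cells under every setting tried, Hivep3 had Treg effects of opposite sign in the 2 kinds of mouse, and Angptl2 was highest in polyclonal non-Treg cells. Capitals mark, in the Npas4 window, the letters TGACGTC or their reverse complement, a cyclic AMP response element lacking its last base, and in the Hivep3 window the reverse complement of the TATA letters TATAAA. The windows lie at chr19:4989922-4990221 (minus strand), chr7:35186135-35186434 (plus strand), chr4:119814428-119814727 (plus strand) and chr2:33215711-33216010 (plus strand).
Npas4: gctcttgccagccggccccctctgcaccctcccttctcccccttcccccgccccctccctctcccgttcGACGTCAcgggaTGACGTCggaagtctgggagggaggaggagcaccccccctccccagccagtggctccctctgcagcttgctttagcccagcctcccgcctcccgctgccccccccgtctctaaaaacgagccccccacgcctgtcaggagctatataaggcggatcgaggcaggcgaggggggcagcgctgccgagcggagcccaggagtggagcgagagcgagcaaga
Slc7a10: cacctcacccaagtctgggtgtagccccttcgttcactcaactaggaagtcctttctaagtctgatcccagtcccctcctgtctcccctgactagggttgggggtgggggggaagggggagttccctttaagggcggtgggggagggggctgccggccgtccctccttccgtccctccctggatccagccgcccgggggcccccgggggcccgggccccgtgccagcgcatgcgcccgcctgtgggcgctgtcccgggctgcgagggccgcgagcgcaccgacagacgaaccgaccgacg
Hivep3: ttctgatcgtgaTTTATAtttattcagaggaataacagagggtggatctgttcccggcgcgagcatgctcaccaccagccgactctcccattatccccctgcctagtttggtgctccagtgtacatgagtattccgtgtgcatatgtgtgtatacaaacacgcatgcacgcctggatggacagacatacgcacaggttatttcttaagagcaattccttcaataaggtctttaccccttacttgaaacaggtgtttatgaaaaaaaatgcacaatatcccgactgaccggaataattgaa
Angptl2: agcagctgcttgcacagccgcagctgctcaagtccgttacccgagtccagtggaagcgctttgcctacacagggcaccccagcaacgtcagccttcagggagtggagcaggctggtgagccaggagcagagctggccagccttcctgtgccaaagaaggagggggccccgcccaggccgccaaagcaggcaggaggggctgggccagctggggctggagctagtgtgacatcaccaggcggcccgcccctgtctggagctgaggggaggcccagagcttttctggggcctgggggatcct

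The Npas4 window held these letters at 181 and 169 bases before the start, once on each strand. They were added to the search after the sequences had been seen. Of the 32841 windows in the RefSeq table, 3.21% hold them at least once and 1.82% more than once. Every window with a full TGACGTCA is among the latter, since that element matches on both strands. None of the 6 windows held the full cyclic AMP response element TGACGTCA (1.79% of all windows), the AP-1 motif TGANTCA (7.81%), the Egr motif GCGNGGGCG (5.55%), the forkhead motif GTAAACA (3.65%) or the NFAT core GGAAA (61.35%), on either strand. The exact letters TATAAA stood in the Hivep3 window alone, against 13.62% of all windows, as their reverse complement 238 bases before the start. Variants of these letters, such as TATATAAG in the Npas4 window, were not counted. TGACGTC is part of TGACGTCA, and the other motifs were searched without regard to overlap. Such letters are a description of a window and not evidence of a bound factor. GC content was 69.3% for Npas4, 44.3% for Hivep3, 68.7% for Hdgfrp3, 73.0% for Lrig1, 70.7% for Slc7a10 and 66.7% for Angptl2. The median over all windows was 52.67%, with quartiles at 45.67% and 61.67%, so Hivep3 lay below the lower quartile and the other 5 windows above the upper one. CpG dinucleotides numbered 21 for Npas4, 24 for Slc7a10, 35 for Lrig1, 36 for Hdgfrp3, 11 for Hivep3 and 9 for Angptl2, against a median of 7 over all windows.

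The libraries held 14076330 to 19722321 reads assigned to genes, and 0 reads in a library allow up to 3 reads, or 0.152 to 0.213 CPM, counting error only. The Treg markers Foxp3, Il2ra, Ctla4 and Ikzf2 summed to 5175 to 5297 CPM in monoclonal Treg and 632 to 782 CPM in monoclonal non-Treg libraries, and to 4974 to 5601 CPM in polyclonal Treg and 453 to 466 CPM in polyclonal non-Treg libraries. All 6 T cell markers were detected in each group, at 3245 to 3293 CPM in monoclonal Treg, 2848 to 2926 CPM in monoclonal non-Treg, 3672 to 4373 CPM in polyclonal Treg and 4302 to 4433 CPM in polyclonal non-Treg libraries. Markers of dendritic cells summed to 335 to 389 CPM in monoclonal Treg and 1508 to 1770 CPM in monoclonal non-Treg libraries, against 6.44 to 11.7 CPM in polyclonal Treg libraries, where Batf3 was at 0, and 26.5 to 27.1 CPM in polyclonal non-Treg libraries. Markers of myeloid cells and neutrophils summed to 232 to 928 and 355 to 507 CPM in monoclonal Treg and non-Treg libraries, against 11.2 to 12.1 and 17.8 to 19.7 CPM in polyclonal Treg and non-Treg libraries. These markers thus moved with the kind of mouse, and their part in the results below was not tested. The scaling to CD3 genes given at the end does not measure it. In bulk RNA, fewer cells that express a gene and less RNA per cell cannot be told apart.

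Summed over the 8 genes, expression was 32.0 and 23.2 CPM in monoclonal Treg and 32.5 and 28.4 CPM in monoclonal non-Treg libraries. The same sum was 528 and 526 CPM in polyclonal Treg and 302 and 263 CPM in polyclonal non-Treg libraries. The contrast of monoclonal with polyclonal cells chose the genes, so it is described below without a test. The description counts a gene as lower when its mean log2(CPM + 1) was at least 4-fold lower in monoclonal cells and both monoclonal libraries lay below both polyclonal ones. By that measure 7 of the 8 genes were lower in Treg cells, where 1.37% of all tested genes were, and 7 of 8 in non-Treg cells, where 0.404% were. The exceptions were Cpne7 in Treg cells and Hivep3 in non-Treg cells, so that 6 genes met it in both cell types, against 0.148% of all tested genes. The rule had no numeric limit, so no gene stands just outside it. The median difference in log2(CPM + 1) was -4.09 in Treg and -3.19 in non-Treg cells, against medians of -0.03 and -0.07 over all tested genes.

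**Figure D1:**
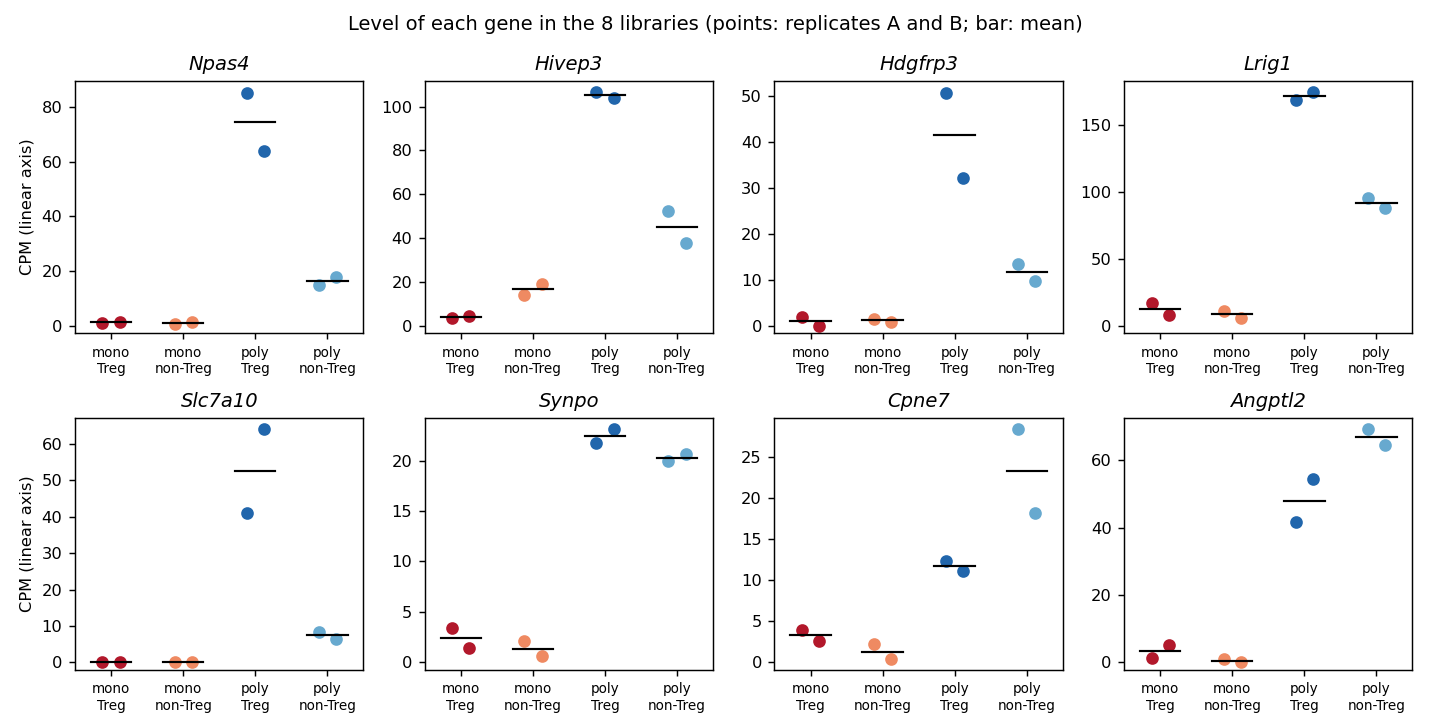
CPM of each of the 8 genes (linear vertical axes, 1 panel a gene) in the 8 libraries, with replicates A and B as points and the group mean as a bar. In all 8 panels both monoclonal groups lie below both polyclonal groups. Polyclonal Treg cells stand highest for Npas4, Hivep3, Hdgfrp3, Lrig1, Slc7a10 and, by a small margin, Synpo.

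Npas4 (NM_153553, chr19:4984355-4989971 on mm9, minus strand) is a bHLH-PAS transcription factor, known in neurons as a gene switched on by calcium entry. It measured 1.05 and 1.52 CPM in monoclonal Treg libraries, against 85.2 and 63.8 CPM in polyclonal Treg libraries. In non-Treg cells it measured 0.610 and 1.35 CPM in monoclonal libraries, against 14.8 and 17.9 CPM in polyclonal libraries. All 4 monoclonal values lay near 1 CPM and far from every polyclonal value. The mean was 57.9-fold lower in Treg cells and 16.6-fold lower in non-Treg cells of the monoclonal mice than of the polyclonal mice. Its log2 difference ranked 3 from the lowest of the 12881 tested genes in Treg cells and 10 in non-Treg cells.

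Hivep3 (NM_010657, chr4:119487283-119808016 on mm9, plus strand) encodes a very large zinc finger protein, also called Schnurri-3, which restrains bone formation in mice. It measured 3.48 and 4.52 CPM in monoclonal Treg libraries, against 107 and 104 CPM in polyclonal Treg libraries. It measured 14.2 and 19.1 CPM in monoclonal non-Treg libraries, against 52.3 and 37.6 CPM in polyclonal non-Treg libraries. Hivep3 therefore had the highest monoclonal non-Treg level of the 8 genes in CPM, and the groups still did not overlap. Its mean was 26.3-fold lower in Treg cells and 2.70-fold lower in non-Treg cells of the monoclonal mice than of the polyclonal mice. The non-Treg fold was the smallest fold among the 8 genes in either cell type.

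Hdgfrp3 (NM_013886, chr7:89026142-89079345 on mm9, minus strand) belongs to the hepatoma-derived growth factor family, whose PWWP domain binds nucleosomes. It measured 1.97 and 0 CPM in monoclonal Treg libraries, or 30 and 0 reads, against 50.8 and 32.2 CPM in polyclonal Treg libraries. It measured 1.39 and 0.903 CPM in monoclonal non-Treg libraries, against 13.5 and 9.68 CPM in polyclonal non-Treg libraries. The 2 monoclonal Treg libraries thus differed by more than counting error, yet both lay below every polyclonal library. The mean was 42.1-fold lower in Treg cells and 10.1-fold lower in non-Treg cells of the monoclonal mice than of the polyclonal mice.

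Lrig1 (NM_008377, chr6:94554523-94650139 on mm9, minus strand) is a membrane protein with leucine-rich repeats and immunoglobulin domains that dampens ErbB receptor signalling and marks epithelial stem cells. It measured 16.7 and 8.02 CPM in monoclonal Treg libraries, against 169 and 174 CPM in polyclonal Treg libraries. It measured 10.9 and 5.8 CPM in monoclonal non-Treg libraries, against 95.2 and 87.8 CPM in polyclonal non-Treg libraries. Lrig1 was detected in all 8 libraries, so these monoclonal values are low levels and not absence. Its mean was 13.9-fold lower in Treg cells and 10.9-fold lower in non-Treg cells of the monoclonal mice than of the polyclonal mice.

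Slc7a10 (NM_017394, chr7:35971404-35986130 on mm9, plus strand) encodes Asc-1, a light chain that exchanges small neutral amino acids, D-serine among them, and pairs with the heavy chain Slc3a2. No read was assigned to it in either monoclonal Treg library, against 41.1 and 64.0 CPM in polyclonal Treg libraries. It measured 0 and 0.193 CPM in monoclonal non-Treg libraries, 3 reads over both, against 8.42 and 6.45 CPM in polyclonal non-Treg libraries. Of the 8 genes, Slc7a10 was the nearest to absent in monoclonal cells. It was at least 287-fold lower in monoclonal than in polyclonal Treg cells, taking the mean floor of 3 reads per library. In non-Treg cells the polyclonal to monoclonal ratio was 83.2, with an exact 95% counting interval of 28.1 to 407. With Slc7a10 at its bound (a log2 difference of -5.47) the median of the 8 genes in Treg cells was again -4.09.

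Synpo (NM_177340, chr18:60753644-60783959 on mm9, minus strand) encodes synaptopodin, which binds actin and alpha-actinin in podocyte foot processes and dendritic spines. It measured 3.42 and 1.41 CPM in monoclonal Treg libraries, against 21.7 and 23.1 CPM in polyclonal Treg libraries. It measured 2.11 and 0.645 CPM in monoclonal non-Treg libraries, against 19.9 and 20.7 CPM in polyclonal non-Treg libraries. The 4 polyclonal values lay close together, between 19.9 and 23.1 CPM. The mean was 9.29-fold lower in Treg cells and 14.7-fold lower in non-Treg cells of the monoclonal mice than of the polyclonal mice.

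Cpne7 (NM_170684, chr8:125641274-125659085 on mm9, plus strand) is a copine, a protein whose C2 domains bind membrane phospholipids when calcium is present. It measured 4.01 and 2.60 CPM in monoclonal Treg libraries, against 12.4 and 11.1 CPM in polyclonal Treg libraries. It measured 2.22 and 0.387 CPM in monoclonal non-Treg libraries, against 28.4 and 18.2 CPM in polyclonal non-Treg libraries. The Cpne7 groups did not overlap in either cell type, and the wider gap was in non-Treg cells. The mean was 3.55-fold lower in Treg cells and 17.9-fold lower in non-Treg cells of the monoclonal mice than of the polyclonal mice. Its log2 difference ranked 335 from the lowest of all tested genes in Treg cells and 6 in non-Treg cells.

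Angptl2 (NM_011923, chr2:33071481-33103234 on mm9, plus strand) encodes an angiopoietin-like secreted protein that binds the integrin of Itga5 and Itgb1 and, in mice, the receptor Pirb. It measured 1.38 and 5.14 CPM in monoclonal Treg libraries, against 41.8 and 54.3 CPM in polyclonal Treg libraries. It measured 1.05 and 0 CPM in monoclonal non-Treg libraries, against 69.1 and 64.5 CPM in polyclonal non-Treg libraries. Polyclonal non-Treg cells held the highest level of Angptl2, unlike the first 6 genes. The mean was 14.7-fold lower in Treg cells and 127-fold lower in non-Treg cells of the monoclonal mice than of the polyclonal mice. In the non-Treg cells only 1 tested gene had a more negative log2 difference.

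**Figure D2:**
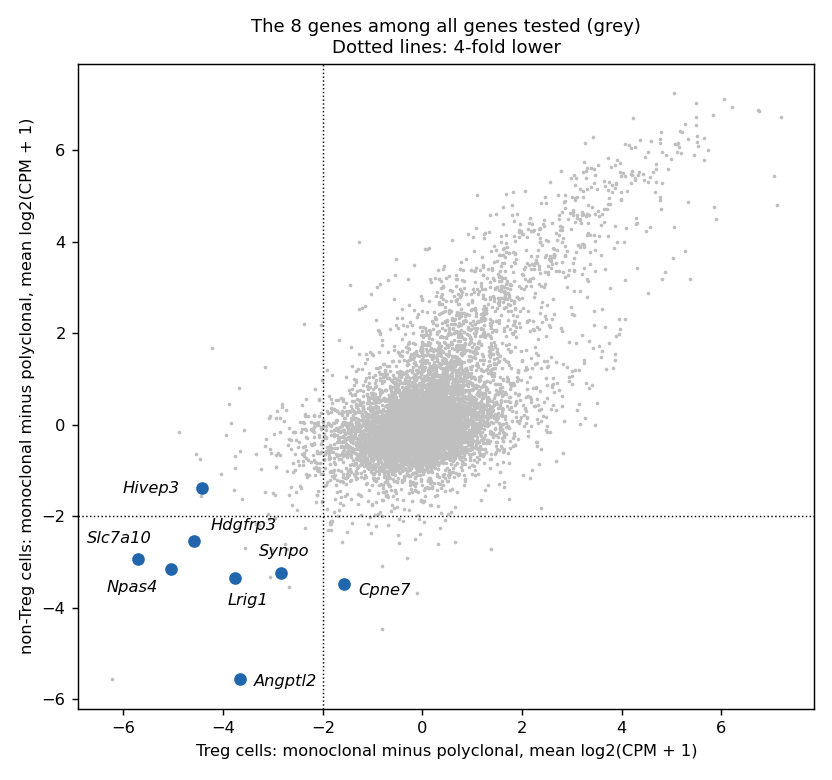
Difference in mean log2(CPM + 1), monoclonal minus polyclonal, in Treg cells (horizontal) and in non-Treg cells (vertical) for the 12881 tested genes, with the 8 genes in blue and dotted lines at 4-fold lower. The plot shows 6 of the 8 genes in the lower left corner, Hivep3 above the horizontal line and Cpne7 to the right of the vertical one.

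Levels of different genes were compared per kilobase of the deposited transcript length (RPKM), as mean ± SD of 2 libraries. In polyclonal Treg cells the order was Lrig1 (34.6 ± 0.78 RPKM), Slc7a10 (27.1 ± 8.34), Npas4 (22.8 ± 4.65), Angptl2 (14.0 ± 2.57), Hivep3 (11.7 ± 0.20), Hdgfrp3 (7.08 ± 2.24), Cpne7 (4.91 ± 0.37) and Synpo (4.48 ± 0.20). Lrig1 and Slc7a10, Slc7a10 and Npas4, Angptl2 and Hivep3, and Hdgfrp3 and Cpne7 differed by less than the larger SD of the pair. In polyclonal non-Treg cells the order was Angptl2 (19.4 ± 0.95 RPKM), Lrig1 (18.5 ± 1.06), Cpne7 (9.76 ± 3.02), Npas4 (5.0 ± 0.66), Hivep3 (4.99 ± 1.15), Synpo (4.05 ± 0.10), Slc7a10 (3.84 ± 0.72) and Hdgfrp3 (1.98 ± 0.47). Angptl2 and Lrig1 there were inseparable by that measure, as were Npas4 and Hivep3, Hivep3 and Synpo, and Synpo and Slc7a10. In monoclonal cells Lrig1 had the highest mean RPKM in Treg cells (2.50 ± 1.24), with Cpne7 (1.38 ± 0.42) within its SD, and Hivep3 the highest in non-Treg cells (1.85 ± 0.38), where Lrig1 followed within its SD (1.69 ± 0.73).

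The comparison of Treg with non-Treg cells in the same kind of mouse was not the contrast that chose the genes, although its libraries were used. A gene high in either polyclonal group, or low in either monoclonal group, was more easily chosen. The comparison was tested with limma on log2(CPM + 1) over all 12881 genes, 2-sided, with Benjamini-Hochberg adjustment and a threshold of 0.05. In polyclonal mice 4 of the 8 genes were higher in Treg cells, where 4.63% of all tested genes were, and 0 were lower, where 3.28% were. At an unadjusted limma p under 0.05, 5 were higher and 0 lower, while edgeR called 3 higher and DESeq2 4, with 0 lower by either tool. The 4 of DESeq2 were not the 4 of limma, since they included Lrig1 and not Hdgfrp3. The median log2 fold change was 1.06 for the 8 genes and 0.00 for all tested genes.

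Slc7a10 was higher in polyclonal Treg than in polyclonal non-Treg cells by 2.64 ± 0.40 on the log2 scale (SE, limma adjusted p = 0.000583), and Npas4 by 2.11 ± 0.35 (adjusted p = 0.00131). Both remained past the threshold in all 17 alternative settings, with adjusted p up to 0.0207 for Slc7a10 and 0.0372 for Npas4. Hivep3 was higher by 1.23 ± 0.25 (adjusted p = 0.00564), and without polyclonal non-Treg replicate B it was not past the threshold (1.0, adjusted p = 0.159, range over the alternatives 0.000130 to 0.159). Hdgfrp3 was higher by 1.73 ± 0.48 (adjusted p = 0.0405), with 50.8 and 32.2 CPM in Treg and 13.5 and 9.68 CPM in non-Treg libraries. That call was lost in 11 of the 17 alternatives, edgeR (adjusted p = 0.197) and DESeq2 (adjusted p = 0.663) on recovered reads among them, over a range of 0.00292 to 0.663. Among the 11 were the fits that left out any 1 polyclonal library or either monoclonal non-Treg library, with adjusted p of 0.0521 to 0.342.

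The other 4 genes did not pass in polyclonal mice. Lrig1 had a log2 fold change of 0.90 ± 0.30 (limma adjusted p = 0.0955), with Treg libraries at 169 and 174 CPM and non-Treg libraries at 95.2 and 87.8 CPM. Its groups did not overlap, and it passed in 5 of the 17 alternatives (adjusted p 0.00374 to 0.448 over all of them), 2 of which left out monoclonal Treg replicate A (0.0362) or B (0.0345). The log2 fold change was 0.14 ± 0.41 for Synpo (adjusted p = 0.932), -0.90 ± 0.43 for Cpne7 (adjusted p = 0.287) and -0.48 ± 0.44 for Angptl2 (adjusted p = 0.672). Cpne7 and Angptl2 were lower in both Treg libraries than in both non-Treg libraries, but their differences were not separable from the pooled spread.

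**Figure D3:**
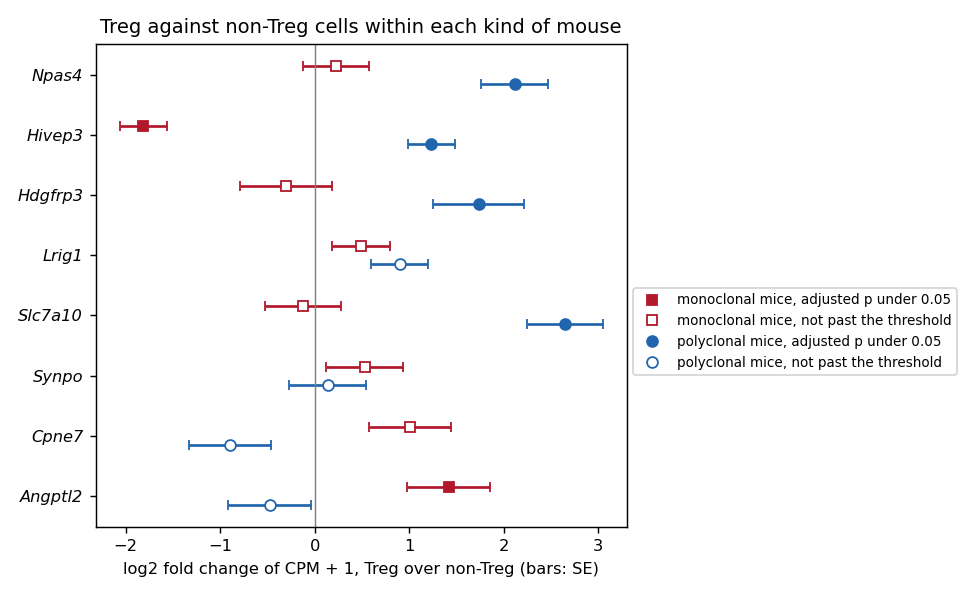
Log2 fold change of CPM + 1, Treg over non-Treg cells, for the 8 genes in monoclonal mice (red squares) and polyclonal mice (blue circles), with bars for SE and filled symbols for limma adjusted p under 0.05. Filled blue circles lie at 1.23 to 2.64 for Npas4, Hivep3, Hdgfrp3 and Slc7a10, while the filled red squares are Hivep3 at -1.81 and Angptl2 at 1.42.

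In monoclonal mice 1 of the 8 genes was higher in Treg cells, where 10.8% of all tested genes were, and 1 was lower, where 13.6% were. At an unadjusted limma p under 0.05, 2 were higher and 1 lower. By edgeR 1 was higher and 1 lower, and by DESeq2 0 were higher and 1 lower. The median log2 fold change of the 8 genes was 0.36, against -0.02 for all tested genes. Hivep3 fell to 3.48 and 4.52 CPM in Treg libraries, against 14.2 and 19.1 CPM in non-Treg libraries (log2 fold change -1.81 ± 0.25, limma adjusted p = 0.000128). This call held in all 17 alternatives, with adjusted p up to 0.00642. The sign of the Hivep3 effect was thus opposite in the 2 kinds of mouse. Each effect passed its own test, but both tests used libraries from which the gene was chosen. Because the difference of these effects is built from the contrast that chose the gene, it was not tested. Dendritic markers were higher in the monoclonal non-Treg libraries, as given above, and their part in the Hivep3 difference was not tested.

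Angptl2 was higher in Treg than in non-Treg cells of monoclonal mice by 1.42 ± 0.44 on the log2 scale (limma adjusted p = 0.0303), at 1.38 and 5.14 CPM against 1.05 and 0 CPM. The call was lost in 8 of 17 alternatives (adjusted p 0.00394 to 0.307). Among these were DESeq2 on recovered reads and the fits without replicate B of monoclonal Treg or of monoclonal non-Treg cells. The log2 fold change was 0.73 without the former and 0.90 without the latter. The fits without polyclonal non-Treg replicate A or B also lost the call. Slc7a10 had 3 reads over the 4 monoclonal libraries, too few for the comparison to pass, and is not read as a test. The other 5 genes did not pass. Their log2 fold changes were 0.23 for Npas4 (adjusted p = 0.696), -0.31 for Hdgfrp3 (0.700), 0.49 for Lrig1 (0.274), 0.53 for Synpo (0.388) and 1.01 for Cpne7 (0.111). Lrig1 passed without monoclonal Treg replicate B (0.97, adjusted p = 0.0363, range 0.0363 to 0.999), and Cpne7 on leaving out replicate A of the monoclonal non-Treg cells (1.61, adjusted p = 0.0390, range 0.0390 to 0.675). For Npas4 and Hdgfrp3 every monoclonal value lay at or under 1.97 CPM, where the pseudocount of 1 CPM shrinks any fold change.

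Relatives and partners of the 8 genes were taken from 9 lists with 68 genes, of which 48 were tested. By the description used above, 1 of the 48 was lower in monoclonal than in polyclonal Treg cells, against 1.37% of all tested genes, and 0 in non-Treg cells, against 0.404%. By this count of lower genes the relatives as a group stood near the background in both cell types. Counts of genes at least 4-fold higher in monoclonal cells stood above it in some lists. In Treg cells 3 of 8 activity-regulated, 1 of 6 Lrig and ErbB and 1 of 6 angiopoietin-like genes were, against 3.68% of all. In non-Treg cells the same lists had 4, 2 and 2, and the transporter chains 1 of 7, against 6.01%. The remaining lists had none.

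Npas4 acts as a dimer with Arnt or Arnt2. Arnt measured 111 and 94.9 CPM in monoclonal Treg and 139 and 125 CPM in polyclonal Treg libraries, and Arnt2 measured 19.9 and 22.7 CPM against 31.7 and 22.3 CPM. Neither met the 4-fold description, and nor did the other 6 tested of the 12 bHLH-PAS genes listed. In the test of Treg against non-Treg cells, Ahr (1.11, limma adjusted p = 0.00757) and Hif1a (0.43, adjusted p = 0.0404) were higher in polyclonal Treg cells. Epas1 (-1.75, adjusted p = 0.000984) was lower there. These were 2 and 1 of 8, against 4.63% and 3.28% of all tested genes. CD3 scaling ended the calls of Ahr (adjusted p = 0.0680) and Hif1a (adjusted p = 0.580). Ahr was also lost without polyclonal non-Treg replicate A (adjusted p = 0.104), and Hif1a in 11 of 17 alternatives in all, edgeR among them (adjusted p = 0.0621). Epas1 passed in all 17. In monoclonal mice 2 of the 8, Hif1a (1.38) and Arntl (0.78), were higher and 0 lower in Treg cells, against 10.8% and 13.6% of all tested genes. By edgeR and DESeq2 also 2 were higher and 0 lower, and 4 were higher and 1 lower at an unadjusted limma p under 0.05. CD3 scaling gave 1 higher and 2 lower. The Arntl call was lost there (adjusted p = 0.765) and without monoclonal Treg replicate A (0.0714) or monoclonal non-Treg replicate A (0.0572) or B (0.0859).

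Other genes that neurons switch on with activity, as they do Npas4, differed from it in most cases. Of 8 tested among 10 listed, 3 were at least 4-fold higher in monoclonal than in polyclonal Treg cells, where 3.68% of all tested genes were, and 1 was lower. In the non-Treg comparison 4 were higher, where 6.01% of all tested genes were, and 0 lower. The dendritic and myeloid markers given above were higher in the same libraries, and their part in these counts was not tested. Fos, an AP-1 subunit, measured 264 and 259 CPM in monoclonal Treg libraries, against 22.7 and 31.3 CPM in polyclonal Treg libraries. Egr1, a zinc finger immediate early factor, measured 503 and 464 CPM in monoclonal Treg libraries, against 119 and 147 CPM in polyclonal Treg libraries. The 1 lower gene was Nr4a3, an orphan nuclear receptor, at 0.197 and 0.0565 CPM in monoclonal Treg libraries, against 20.4 and 27.8 CPM in polyclonal Treg libraries. In the non-Treg cells Nr4a3 measured 5.10 and 5.61 CPM in monoclonal libraries, against 9.81 and 9.49 CPM in polyclonal libraries. Treg against non-Treg, 1 of the 8 was higher and 2 lower in polyclonal mice, and 1 was higher and 5 lower in monoclonal mice (limma). Of all tested genes 4.63% were higher and 3.28% lower in polyclonal mice, and 10.8% and 13.6% in monoclonal mice. The 2 lower in polyclonal mice were Fos (-0.79, adjusted p = 0.00884) and Fosb (-0.82, adjusted p = 0.0121). The Fos call was lost in 4 of 17 alternatives and that of Fosb in 5. CD3 scaling ended both calls, as did using no filter and leaving out polyclonal non-Treg replicate A. Both were also lost when only the compared libraries were fitted (limma adjusted p = 0.0824 for Fos and 0.0987 for Fosb). The Fosb call was lost without polyclonal Treg replicate B as well. Over the alternatives the adjusted p ran up to 0.184 for Fos and 0.163 for Fosb. In monoclonal mice the 5 lower genes, Fos, Fosb, Egr1, Nr4a1 and Nr4a3, passed in all 17 alternatives, while Junb, the 1 higher gene, lost its call in 9, CD3 scaling, edgeR and DESeq2 among them (adjusted p up to 0.557). Nr4a1 was higher in polyclonal Treg cells (1.46, adjusted p = 5.48e-05), as Npas4 was, and lower in monoclonal Treg cells (-1.29, adjusted p = 7.80e-05), in all 17 alternatives of each.

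The closest relatives of Hivep3 and Hdgfrp3 did not share their pattern. Hivep2 measured 252 and 250 CPM in monoclonal Treg libraries, against 415 and 344 CPM in polyclonal Treg libraries. None of the 2 Hivep relatives, the 3 tested HDGF relatives or the 5 tested copines passed the limma test of Treg against non-Treg cells in either kind of mouse, or met the 4-fold description, and edgeR and DESeq2 called 0 of them as well. In polyclonal mice 0 reached an unadjusted p under 0.05, and in monoclonal mice 1 of each family did. With CD3 scaling 1, 1 and 3 of them were lower in monoclonal Treg cells, where that scaling lowered the median of all genes to -0.65.

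Slc3a2, the heavy chain that Slc7a10 needs at the membrane, measured 105 and 110 CPM in monoclonal Treg and 103 and 129 CPM in polyclonal Treg libraries. The partner chain was thus present at similar levels where Slc7a10 had no read. Of the 7 tested transporter chains, 0 passed in polyclonal mice by limma, edgeR or DESeq2, with 1 at an unadjusted p under 0.05, and in monoclonal mice Slc7a5 was lower in Treg cells (-1.09, limma adjusted p = 0.00256; 0.0531 without monoclonal non-Treg replicate A, the highest over the alternatives). Among the receptors that Lrig1 acts on, Erbb2 measured 31.9 and 36.4 CPM in monoclonal Treg libraries, against 1.42 and 1.17 CPM in polyclonal Treg libraries, the reverse of Lrig1. Erbb2 was higher in Treg than in non-Treg cells of monoclonal mice (2.05, limma adjusted p = 0.000898), as was Erbb3 (0.95, adjusted p = 0.0435). These were 2 of 6 tested, against 10.8% of all tested genes. The Erbb3 call was lost in 11 of 17 alternatives (adjusted p up to 0.515) and that of Erbb2 in none.

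Of the alpha-actinins that synaptopodin binds, Actn1 was lower in Treg than in non-Treg cells in monoclonal mice (-2.50, limma adjusted p = 2.71e-07) and in polyclonal mice (-0.96, adjusted p = 0.00166). Actn2 was higher in polyclonal Treg cells (1.5, adjusted p = 0.0340), a call lost in 8 of 17 alternatives (adjusted p up to 0.237), edgeR and CD3 scaling among them. Pirb, a receptor of Angptl2 that myeloid cells carry, measured 75.9 and 50.2 CPM in monoclonal Treg libraries, against 1.85 and 0.761 CPM in polyclonal Treg libraries. It moved with the myeloid markers given above, and their part in it was not tested. Itgb1 was higher in Treg than in non-Treg cells of monoclonal mice (1.55, adjusted p = 9.66e-07), while its partner chain Itga5 (-1.66, adjusted p = 0.0165) and Pirb (-1.85, adjusted p = 0.000506) were lower. The Itga5 call was lost in 4 of 17 alternatives (adjusted p up to 0.123), namely edgeR (0.0560) and the fits without monoclonal Treg replicate A (0.103) or monoclonal non-Treg replicate A (0.123) or B (0.0860).

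**Figure D4:**
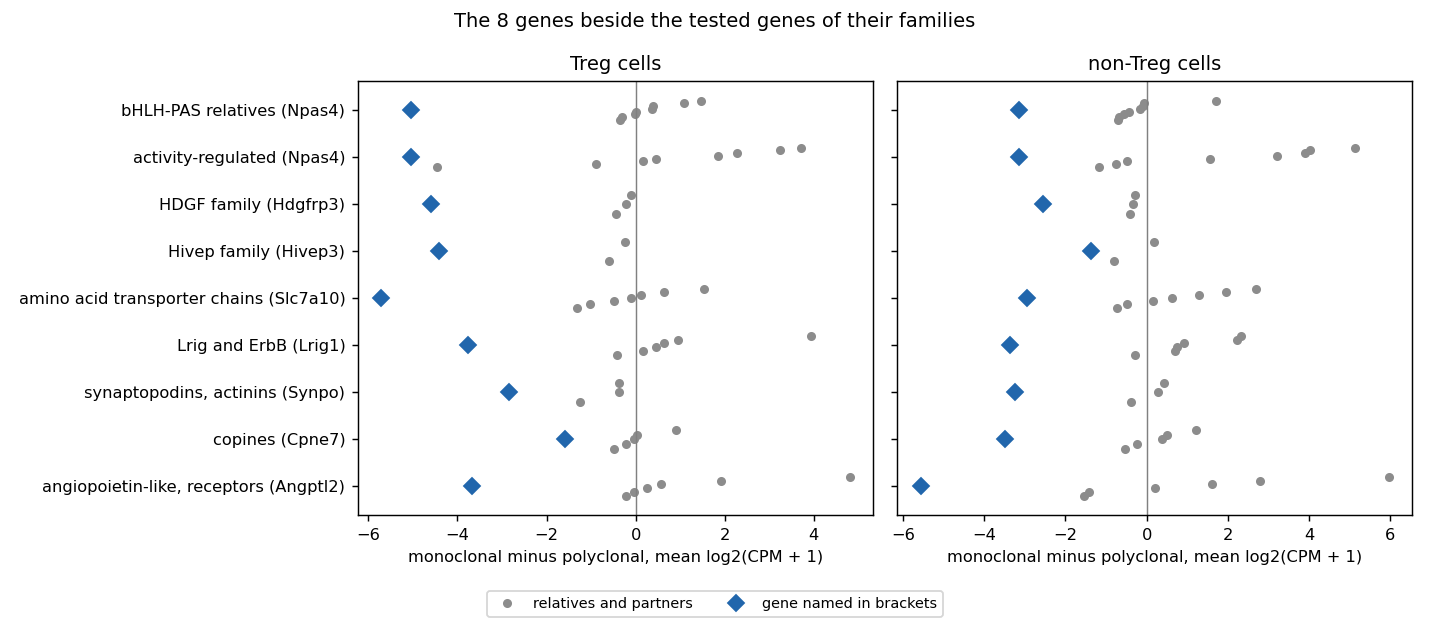
Difference in mean log2(CPM + 1), monoclonal minus polyclonal, in Treg cells (left panel) and non-Treg cells (right panel) for each of the 8 genes (blue diamonds) and the tested genes of its lists (grey points). Each diamond lies left of all grey points of its row in both panels, and Nr4a3 comes nearest to Npas4 in Treg cells.

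The 8 genes lie on 7 chromosomes, and only Hdgfrp3 and Slc7a10 share one. Of the 16 nearest tested genes on either side, 2 were lower by the 4-fold description in Treg cells, against 1.37% of all tested genes, and 0 in non-Treg cells, against 0.404%. Sh3gl3, an endophilin gene 329073 bases from Hdgfrp3, had no read in the 4 monoclonal libraries, against 6.61 and 7.40 CPM in polyclonal Treg and 2.09 and 1.55 CPM in polyclonal non-Treg libraries. Slc29a2, a nucleoside transporter 34035 bases from Npas4, measured 0 and 1.13 CPM in monoclonal Treg libraries, against 5.54 and 5.02 CPM in polyclonal Treg libraries. Hdgfrp3, Lrig1, Slc7a10 and Angptl2 each overlap a gene on the opposite strand in the deposited table (Tm6sf1, Slc25a26, Lrp3 and Ralgps1). The libraries kept strand information per the labels, but the sources used here do not say whether counting used it, so reads of these 4 genes and their partners may be mixed. Tm6sf1 went the other way from Hdgfrp3, at 14.1 and 31.3 CPM in monoclonal Treg and 9.16 and 4.97 CPM in polyclonal Treg libraries.

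Across the 8 libraries the 28 pairs among the 8 genes had Pearson's r of log2(CPM + 1) from 0.625 (Hivep3 and Cpne7) to 0.989 (Lrig1 and Synpo), with a median of 0.906. These values are a description, since all 8 genes were picked for the same gap between monoclonal and polyclonal libraries, which fall into separate clusters. Npas4 and Slc7a10 had r = 0.987. Outside the 8 genes, of 12034 searched, the pattern of Slc7a10 was most like that of Sh3gl3 (r = 0.998) and Hdac7 (0.995), and that of Npas4 most like Cdca4 (0.991) and Hdac7 (0.991). Likeness in r says nothing of size. Hdac7, a class IIa histone deacetylase, measured 276 and 292 CPM in monoclonal Treg libraries, against 591 and 587 CPM in polyclonal Treg libraries. The closest for Hivep3 were Fibcd1 (0.994) and Mast2 (0.988), for Hdgfrp3 Ckap5 (0.985) and Ntn1 (0.985), and for Lrig1 Slc7a6 (0.991) and Atp9b (0.987). For Synpo they were Cdan1 (0.992) and Chst2 (0.991), for Cpne7 Ets1 (0.974) and Il27ra (0.968), and for Angptl2 Lax1 (0.990) and Ctnnb1 (0.985).

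Markers of neurons, podocytes and adipocytes were near 0 in every library, and those of epithelial stem cells were not examined. The neuronal markers Snap25, Syt1, Rbfox3, Map2 and Tubb3 summed to 0 to 3.55 CPM over the 8 libraries, those of podocytes to 0 to 3.27 CPM and those of adipocytes to 0 to 0.759 CPM. B cell markers summed to 2.77 to 10.1 CPM in monoclonal Treg and 12.1 to 14.1 CPM in monoclonal non-Treg libraries, against 9.38 to 17.8 CPM in polyclonal Treg and 3.04 to 3.10 CPM in polyclonal non-Treg libraries, and Pax5 was at 0 in 3 of the 4 groups. Scaling each library to its CD3 genes, which T cells express, left 7 of the 8 genes at least 4-fold lower in monoclonal cells in each cell type. Their median difference was then -4.17 in Treg and -2.85 in non-Treg cells, while that of all tested genes was -0.13 and 0.43. The shift from this scaling is small beside the gaps that chose the genes, so the count does not test the part of other cells.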

How the data were processed

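RNA-seq libraries of 8 samples in 4 groups of 2 were analysed. The authors deposited 1 table of CPM (reads per 1000000 assigned reads) for 24016 genes with their mm9 positions. The submitters' processing notes list STAR 2.4.1a, HOMER 4.7, edgeR, Trimmomatic 0.33, CASAVA 1.8.2, FastQC 0.10.1 and the build mm9, with no roles, and the sources used here do not say how multi-gene reads were handled. Every deposited CPM value was a whole multiple of 1 read within 0.01 read, so reads were recovered.

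The 12881 genes that reached 1 CPM in 2 or more libraries were fitted with limma 3.58.1 (R 4.3.3; trend, robust, 4 group means, 4 residual degrees of freedom) on log2(CPM + 1), which understates changes of low genes. Scripts were tested on simulated data. Alternatives were pseudocounts of 0.25 and 4, no filter, TMM or CD3 scaling, edgeR 4.0.16 and DESeq2 1.42.0 on recovered reads, only the compared libraries, a replicate block and leaving out each library. The genes and lists were chosen with earlier results of these data known. Named besides the 8 genes were list genes that passed a test or reached 10 CPM, the nearest tested neighbours and the 2 genes of highest r per gene.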

Additional observations from a re-analysis of the deposited data

Results flagged for a closer look

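For 3 genes the Treg effect had opposite directions in the 2 kinds of mouse in every library. The share of all tested genes that did so was not counted, so this number is not read as a trait of the 8 genes. The monoclonal minus polyclonal difference of the log2 Treg effects was -3.04 for Hivep3, 1.91 for Cpne7 and 1.89 for Angptl2. Hivep3 was lower in both Treg than in both non-Treg libraries of monoclonal mice and higher in those of polyclonal mice, and Cpne7 and Angptl2 showed the reverse. The difference was not tested, since it is built from the contrast that chose the genes. For Cpne7 neither effect passed its own limma test. For Angptl2 only the monoclonal effect passed, a call lost in 8 of 17 alternatives.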

How the results depend on the processing

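In the test of Treg against non-Treg cells, 1018 genes passed in polyclonal and 3143 in monoclonal mice. Scaling to the CD3 genes gave 524 and 6010. In monoclonal mice that scaling moved the median of all genes to -0.65, the higher share of the calls was 6.16% against 44.4%, and Actn4 reversed to -0.57 (adjusted p = 0.0461). TMM scaling gave a higher share of 36.0% there. Leaving out 1 library gave 435 to 1236 calls in polyclonal mice and 1300 to 3780 in monoclonal mice. The low counts came without polyclonal non-Treg replicate A (472) or B (435) and without monoclonal non-Treg replicate B (1300) or A (1892). The replicate block gave 945 and 3032 calls and changed no call among the 8 genes; the deviations of replicates A correlated at 0.0752 and 0.0969, and whether A and B mark shared animals or days is not stated, so they were not treated as pairs. The genes at least 4-fold lower in monoclonal cells numbered 177 in Treg and 52 in non-Treg cells, 430 and 134 with a pseudocount of 0.25, and 61 and 12 with 4; CD3 scaling gave 30 in non-Treg cells. With a pseudocount of 4, 5 of the 8 genes met that description in non-Treg cells. The causes were not tested. Values under about 0.2 CPM are at the limit of depth.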

Other observations

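In all, 19 genes were at least 4-fold lower in monoclonal than in polyclonal cells of both types, with no overlap of libraries. Besides 6 of the 8 genes these were 13 others, named after their values were seen: Igj, Spry1, Penk, Bcat1, Cxcr5, Pou2af1, A430107P09Rik, Sh3rf2, Btbd11, C030034L19Rik, Nrn1, Serpina9 and Sptb. Igj, the joining chain of secreted antibodies, averaged 0.225 CPM in monoclonal Treg and 96.4 CPM in polyclonal Treg cells. In the non-Treg cells Igj averaged 0.457 CPM in monoclonal and 68.3 CPM in polyclonal mice. Penk, which encodes the opioid precursor proenkephalin, averaged 6.10 CPM in monoclonal Treg and 74.8 CPM in polyclonal Treg cells. Cxcr5, the chemokine receptor that guides cells to B cell follicles, averaged 8.64 CPM in monoclonal Treg and 92.7 CPM in polyclonal Treg cells. Nrn1, which encodes neuritin, averaged 11.8 CPM in monoclonal Treg and 84.3 CPM in polyclonal Treg cells. These values are a description of the libraries, with no test.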
